A study of Drosophila melanogaster with 2 samples.

Results

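Binding of kay, the fly Fos protein and a partner in the AP-1 transcription factor, was examined here at the transfer RNA (tRNA) genes of *Drosophila melanogaster*. Whole embryos of mixed sex, 0 to 24 hours old, came from a transgenic line that stably expresses kay with GFP at its C-terminus, and tagged protein was precipitated with an anti-GFP antibody (ChIP-seq). The samples form 1 group of 2 biological replicates, numbered 2 and 4 in the labels, so no genotype, treatment or stage was set against another. Signal from whole embryos averages over all cell types and over the whole of embryonic development. Members were all nuclear genes of the biotype tRNA on the 6 chromosome arms, which gave 290 of the 23973 genes there (Ensembl release 115, dm6). A gene was called bound when the summit of a peak kept by the irreproducible discovery rate (IDR) procedure, which compares replicates, lay within 500 bp of it. It was said to have a candidate when a summit of the authors' 30000 pooled candidate regions did so. The 3860 IDR peaks are exactly the strongest 3860 of those candidates. Each region has a signal from the authors' peak caller, which ranks and describes regions of 1 list. Without read counts in these lists, library depth is unknown. Shares have exact 95% Clopper-Pearson intervals, which reflect counting error alone. Sheared fragments measured 200 to 800 bp, more than the length of any tRNA gene here, which limits how closely a summit can be placed. Neighbouring tRNA genes can share a summit, so genes are not independent of each other.

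tRNA genes are transcribed by RNA polymerase III from a promoter that lies inside the gene. Its A and B boxes are bound by the factor TFIIIC, which places TFIIIB just upstream of the start, and TFIIIB in turn recruits the polymerase. The genes are short and often occur in clusters and in many identical copies, and the tRNAs of an isotype, which carry the same amino acid, can differ in their anticodon. AP-1 factors such as kay with Jra bind short palindromic sites and act mainly at genes of RNA polymerase II.

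The 290 genes had a median length of 73 bp (71 to 186 bp) and belonged to 22 isotypes with 44 anticodons. They held only 95 distinct sequences, and 238 genes were identical to at least 1 other, in 43 identical sets of up to 13 genes. The B box core, searched as GTTCNANNC on the gene strand, was present in 271 of 290 genes (93.4%), against 2.06% of all 73-bp tiles of the arms searched on both strands. The sequences below (RefSeq Release 6 genome, gene strand, 5′ to 3′) are of genes that differ in occupancy, and capitals mark the B box core. Whether the gene sequence has a part in occupancy was not tested. Tyr-GTA-1-8, Val-CAC-2-5, Leu-TAA-2-1 and Val-CAC-1-1 were bound, with summits 228, 431, 200 and 305 bp outside the gene. All 5 copies of Pro-TGG-1 and all 4 of Cys-GCA-1 had a candidate but no IDR peak, and none of the 5 copies of Lys-TTT-2 had either.
Tyr-GTA-1-8: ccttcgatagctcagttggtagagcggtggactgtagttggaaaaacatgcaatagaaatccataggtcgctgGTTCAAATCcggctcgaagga
Val-CAC-2-5: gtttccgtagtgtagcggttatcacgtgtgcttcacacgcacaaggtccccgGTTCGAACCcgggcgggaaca
Val-CAC-1-1: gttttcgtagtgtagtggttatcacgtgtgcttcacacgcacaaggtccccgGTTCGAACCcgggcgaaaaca
Leu-TAA-2-1: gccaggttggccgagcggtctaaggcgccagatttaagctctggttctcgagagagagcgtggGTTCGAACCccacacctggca
Pro-TGG-1-1: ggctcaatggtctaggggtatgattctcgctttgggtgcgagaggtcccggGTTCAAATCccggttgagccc
Cys-GCA-1-1: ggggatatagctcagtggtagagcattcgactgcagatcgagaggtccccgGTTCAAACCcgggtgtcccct
Lys-TTT-2-1: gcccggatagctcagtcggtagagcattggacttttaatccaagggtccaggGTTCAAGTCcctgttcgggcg
Val-CAC-1-1 and Val-CAC-2-5 differ at 4 of 73 bases (94.5% identity). The B box core was present in each of the 7, bound or not.

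kay was at few tRNA genes. An IDR summit lay within 500 bp of 22 of the 290 genes (7.59%, 95% interval 4.82 to 11.3%). The same rule applied at the transcription start sites (TSSs) of protein-coding genes called 18.8% of 13945 genes. Among 301 snoRNA and snRNA genes it called 5.65%, a value inside the interval of the tRNA genes. Of all windows of the arms as long as the median tRNA gene, it called 2.87%. The tRNA share therefore lay between that of an arbitrary window and that of a protein-coding start. The 22 genes stood in 15 of 174 tRNA loci (8.62%, 4.91 to 13.8%) and rested on 15 distinct IDR peaks, 1 per locus. A locus is a run of tRNA genes on either strand with gaps of at most 1 kb.

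Weak candidates were much more common at tRNA genes than IDR peaks. A candidate lay within 500 bp of 169 of 290 genes (58.3%, 52.4 to 64%), beside 53% of protein-coding genes at a TSS, 39.5% of snoRNA and snRNA genes and 19.2% of windows. At the 169 genes the strongest candidate had a median signal of 41.6 and a median rank of 12916, where a summit shared by several genes counts once for each. The median over all 30000 candidates, not only the strongest per gene, was 37.8. Of the 155 distinct candidates near tRNA genes, 15 were IDR peaks (9.68%), against 12.9% of all candidates. Candidate lists are named by the authors as peaks and background, so a candidate below the IDR list may be background.

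**Figure D1:**
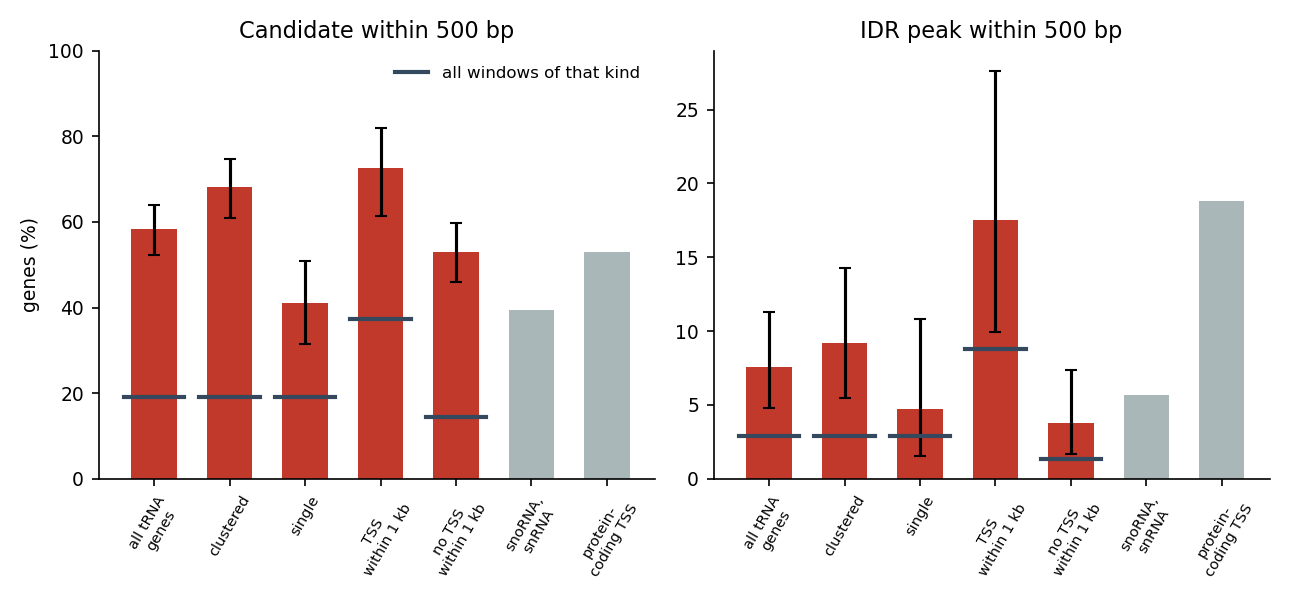
Share of genes with a candidate (left) or an IDR peak (right) within 500 bp, in percent, for all tRNA genes and their subsets (red, with 95% binomial intervals), for windows of the arms of the same kind (dark lines), and for snoRNA and snRNA genes and protein-coding TSSs (grey). With a candidate, tRNA genes reach 58.3% and protein-coding TSSs 53%, while with an IDR peak they reach 7.59% and 18.8%.

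A protein-coding TSS close by went with most of the occupancy. Of the 80 tRNA genes with a TSS within 1 kb, 14 were bound (17.5%, 9.91 to 27.6%), and of the 210 without one, 8 were (3.81%, 1.66 to 7.37%). Windows of the arms show the same order, with 8.78% called where a TSS lay within 1 kb and 1.32% where none did. For candidates the shares were 58 of 80 (72.5%, 61.4 to 81.9%) and 111 of 210 (52.9%, 45.9 to 59.8%), and among windows 37.4% and 14.4%. Within each class, the tRNA share thus lay above that of the windows, and the intervals counted by gene lie above the window values. The windows cover all sequence of the arms. Counted per locus, 10 of 52 loci with a TSS within 1 kb (19.2%, 9.63 to 32.5%) and 5 of 122 without (4.1%, 1.34 to 9.31%) were bound. The lower ends of these intervals lie close to the window values of 8.78% and 1.32%, and a locus can span more sequence than a window.

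Clusters had more candidates than single genes. The 69 clusters held 185 genes, and 126 of these had a candidate (68.1%, 60.9 to 74.8%), against 43 of 105 single genes (41%, 31.5 to 51%). IDR peaks lay at 17 of the 185 clustered genes (9.19%, 5.44 to 14.3%) and at 5 of the 105 single genes (4.76%, 1.56 to 10.8%), intervals that overlap. Among genes with no TSS within 1 kb, 84 of 132 clustered genes (63.6%, 54.8 to 71.8%) and 27 of 78 single genes (34.6%, 24.2 to 46.2%) had a candidate. Of these, 7 clustered genes (5.3%, 2.16 to 10.6%) and 1 single gene (1.28%, 0.0325 to 6.94%) were bound. A clustered gene can count a summit that lies at its neighbour, and the part of this in the difference was not tested.

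The 5 largest clusters differed in their candidates. A cluster of 7 Arg-TCG and Ser-CGA genes on X had no candidate within 500 bp of any gene in either replicate or in the pool, and it lies 14604 bp from the nearest protein-coding TSS. The other cluster of 7, Ile-AAT and Leu-CAA genes on 2R, had a candidate at 4 genes with a highest signal of 59.3, and its best ranks were 8550 in replicate 2 and 3990 in replicate 4. The 6 Cys-GCA and Lys-CTT genes on 3L, inside an intron of Cht7, all had a candidate, with a highest signal of 54.1. In the cluster of 6 Asn-GTT and Arg-ACG genes on 3R, 2 genes had one (31.5), and in the cluster of 5 Arg-ACG, Asn-GTT and Lys-CTT genes on 2R all 5 did (26.8). None of these 5 clusters was bound, beside 10 of all 69 clusters (14.5%, 7.17 to 25%). With 5 clusters and so low a share, this does not set large clusters apart from the others.

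The strongest peak at tRNA genes was the second strongest of all 3860. It spans chr2R:23072133-23072792 (dm6), with a pooled signal of 1891.5, and ranked 3 in replicate 2 and 2 in replicate 4. Its summit is intergenic and lies between 2 divergent serine tRNA genes, 72 bp upstream of Ser-TGA-2-1 (FBgn0050202) and 409 bp upstream of Ser-TGA-1-1 (FBgn0050201). The nearest protein-coding TSS, of l(2)k09913, was 2124 bp away, and Fib, which encodes the nucleolar protein fibrillarin, starts on the other side. Within 5 kb of the summit there were 2 other candidates. An IDR peak 2324 bp away, with a signal of 212.7, lay close to the starts of both Fib and CG3085, and a candidate 2204 bp away on the other side had a signal of 24.2. No AP-1 site (TGACTCA or TGAGTCA) lay in the 660-bp peak. The next peak at a tRNA gene had a signal of 421.1, so this one stands apart from the other 14.

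**Figure D2:**
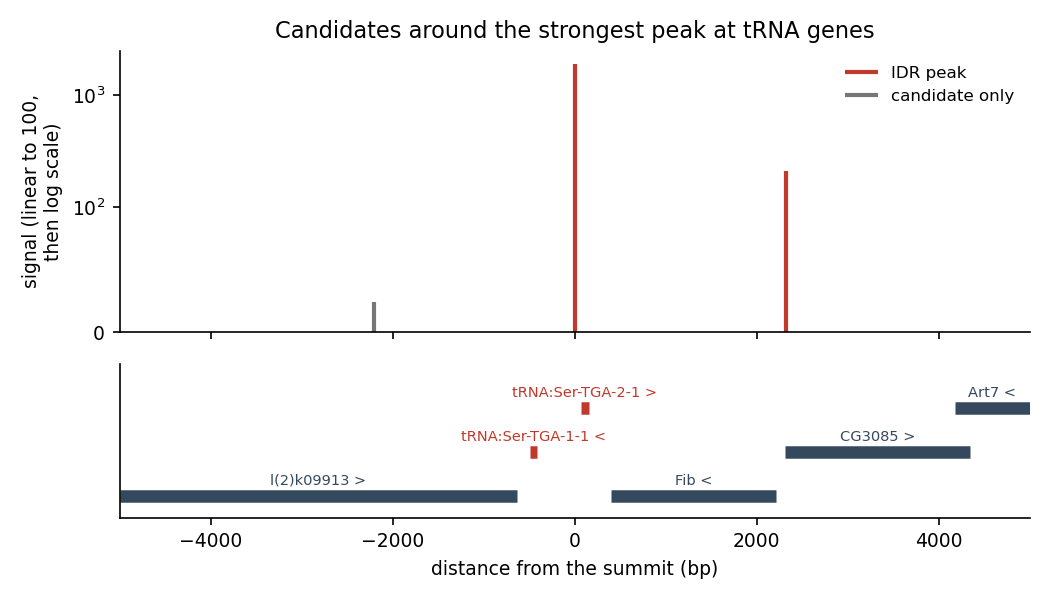
Signal of pooled candidates (upper panel, linear to 100 and logarithmic above) and genes (lower panel, tRNA genes in red, protein-coding genes in dark blue, arrowheads giving the strand) by distance in bp from the summit of the strongest peak at tRNA genes. The peak, at 1891.5, stands between Ser-TGA-1-1 and Ser-TGA-2-1, and the other IDR peak in view, at 212.7, stands near the starts of Fib and CG3085.

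The next 2 peaks in strength lay in introns of protein-coding genes, near a TSS. At the tyrosine gene Tyr-GTA-1-8 (FBgn0012024, chr3R:8669081-8669174, minus strand), a peak of signal 421.1 had its summit 228 bp upstream of the gene and 216 bp from a TSS of CG8036, in whose intron the gene lies. It ranked 192 in replicate 2 and 220 in replicate 4. Its neighbours in the same cluster, Tyr-GTA-1-6 and Tyr-GTA-1-7, shared a candidate of 39.3 that ranked 28943 in replicate 2 and 8058 in replicate 4. At the valine gene Val-CAC-2-5 (FBgn0012003, chr3R:19672277-19672349, minus strand), in an intron of Naam, a peak of 258.2 had its summit 431 bp downstream of the gene and 396 bp from the Naam TSS, and ranked 474 and 899 in replicates 2 and 4. Both summits were nearer to the protein-coding TSS than to the tRNA gene.

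The 101 bases around 2 summits are shown to set a summit at a distance beside one that reaches into a tRNA gene (RefSeq Release 6, strand of the tRNA gene, 5′ to 3′, with bases of the tRNA gene in capitals). They are chr3R:8669352-8669452 near Tyr-GTA-1-8 and chr3R:16431860-16431960 at the threonine gene Thr-AGT-1-4.
Tyr-GTA-1-8 summit: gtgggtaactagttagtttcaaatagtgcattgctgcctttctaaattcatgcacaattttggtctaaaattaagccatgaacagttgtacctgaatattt
Thr-AGT-1-4 summit: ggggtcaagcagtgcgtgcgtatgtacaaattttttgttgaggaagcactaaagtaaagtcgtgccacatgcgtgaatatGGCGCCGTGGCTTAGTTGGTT
The Thr-AGT-1-4 summit lay 30 bp upstream of the gene, with a signal of 106.9 and ranks of 4928 in replicate 2 and 2712 in replicate 4, and its window holds the gene's first 21 bases. Neither window holds an AP-1 site. The G and C content was 33.7% near Tyr-GTA-1-8 and 47.5% at Thr-AGT-1-4.

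Upstream of Arg-CCT-1-3 and the divergent Arg-CCT-1-2, a peak of signal 218.6 had its summit 45 bp from Arg-CCT-1-3 and 4229 bp from the nearest TSS, and ranked 736 in replicate 2 and 1065 in replicate 4. It was the only peak of the 15 with an AP-1 site within 50 bp of the summit, with the site's centre 9 bp away. At Ala-CGC-1-1, in an intron of gol, the summit of a peak of 217.8 lay inside the gene, 55 bp from its 5′ end and 8287 bp from a TSS, and ranked 1101 and 585 in replicates 2 and 4. At His-GTG-1-3 a peak of 195.5 had its summit 157 bp upstream of the gene and 93 bp from a TSS of CG8490, with ranks of 1096 and 1182. The ranks of these 3 peaks ran from 585 to 1182 over both replicates.

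The other peaks had signals of 144.2 or less. A peak of 144.2 was shared by Trp-CCA-2-3, Gly-GCC-1-12 and Trp-CCA-2-4, with its summit 63 bp upstream of Trp-CCA-2-3. Leu-TAA-2-1 had 138.7, with the summit 200 bp upstream of the gene and 375 bp from a TSS of CG13605. Trp-CCA-2-2 and Gly-GCC-1-9 shared a peak of 129.7 whose summit was 4 bp from a TSS of CG30122, and the Phe-GAA-1-2 peak, at 121.8, had its summit 21 bp from a TSS of RpL17, a ribosomal protein gene. In those 2 cases the summit sat at a protein-coding start. Ser-CGA-1-4 and Val-AAC-2-1, in an intron of hts, shared a peak of 119.7 with its summit 75 bp upstream of Ser-CGA-1-4 and 3027 bp from a TSS, and Val-CAC-1-1 had 115.1 with its summit 305 bp upstream. The lowest were Arg-TCT-1-1 with Met-CAT-1-1, sharing a peak of 103.4 with its summit inside Arg-TCT-1-1, and Gln-TTG-2-1 at 103.0.

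Just outside the IDR list, whose lowest signal was 93.6, stood the divergent genes Phe-GAA-1-4 and Phe-GAA-1-5, with a shared candidate of 89.3 that ranked 5103 in replicate 2 and 4732 in replicate 4, and Gly-GCC-1-13, with 88.3 and ranks of 4574 and 4992. No tRNA gene had a strongest candidate between 89.3 and 103.0. The difference between bound and unbound at this border is one of rank in a continuous list.

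Across the 15 IDR peaks, 10 summits were nearer to the tRNA gene than to any protein-coding TSS and 5 were nearer to a TSS. Counted by gene, 16 of 22 bound genes (72.7%, 49.8 to 89.3%) had their strongest IDR summit nearer to the tRNA gene. By distance from a TSS, 7 summits lay within 500 bp of one and 8 lay farther away. The summits lay upstream of the nearest tRNA gene in 11 cases, downstream in 2 and inside it in 2, with a median distance of 157 bp (0 to 431 bp). In all, 9 summits were intergenic and 6 intronic. For summits within 500 bp of both a tRNA gene and a TSS, which of them a summit belongs to cannot be told apart.

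Candidate summits were densest just upstream of the tRNA 5′ end. In the 100 bp upstream there were 12.4 candidate summits per 100 tRNA genes, against 13.3 per 100 protein-coding TSSs. The levels beyond 1 kb (to 2 kb) were 4.21 and 3.39 per 100 bp. Over the 500 bp upstream and the 500 bp downstream, candidates at tRNA genes were about as dense on either side, at 7.66 and 7.59 per 100 bp and 100 genes, whereas those at TSSs were at 9.72 and 4.46. IDR summits at tRNA genes were at 1.1 upstream and 0.276 downstream, from 16 and 4 summits, and those at TSSs at 3.05 and 0.682. A summit is counted here once for each gene or TSS it lies near.

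**Figure D3:**
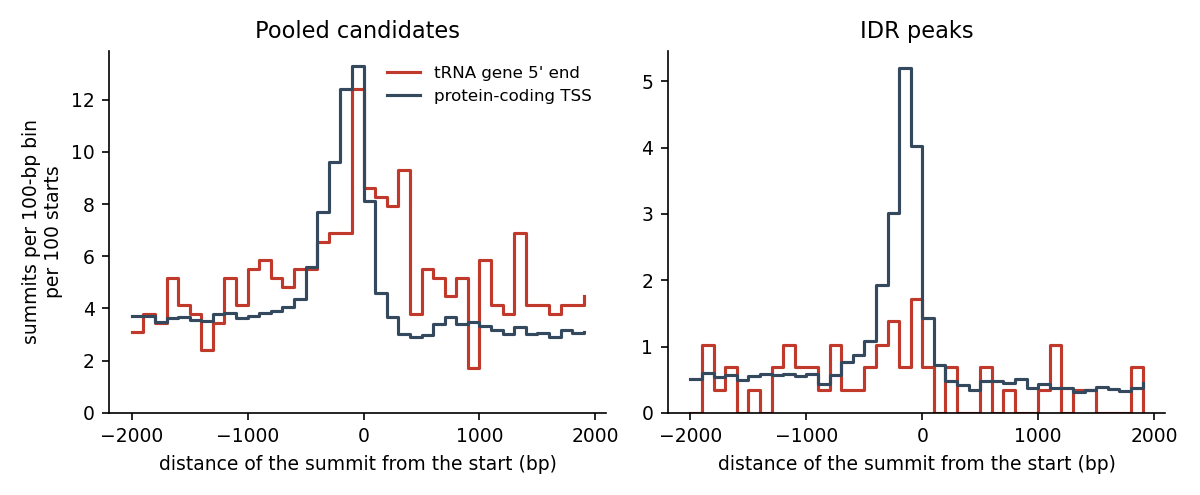
Summits per 100-bp bin and per 100 starts, by distance in bp from the 5′ end of tRNA genes (red) and from protein-coding TSSs (dark blue), for pooled candidates (left) and IDR peaks (right), with negative distances upstream. In the bin just upstream candidates reach 12.4 at tRNA genes and 13.3 at TSSs, while IDR summits reach 1.72 and 4.03.

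By isotype, 13 of 22 had at least 1 bound gene and 21 had a candidate. Arg, Ser, Trp and Val each had 3 bound genes and Gly had 2. Ala, Gln, His, Leu, Met, Phe, Thr and Tyr had 1 each. No bound gene was found among Asn, Asp, Cys, Glu, Ile, Lys, Pro, the single SeC (selenocysteine) gene and iMet, the initiator of translation. The share with a candidate ran from 9 of 10 Tyr genes, 8 of 10 Asn genes and 4 of 5 His genes to 7 of 20 Ser genes and 2 of 6 Met genes, and SeC had none. Ser therefore had the strongest peak although few of its genes had a candidate. Isotypes of few genes give wide intervals, and no isotype was tested against another.

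**Figure D4:**
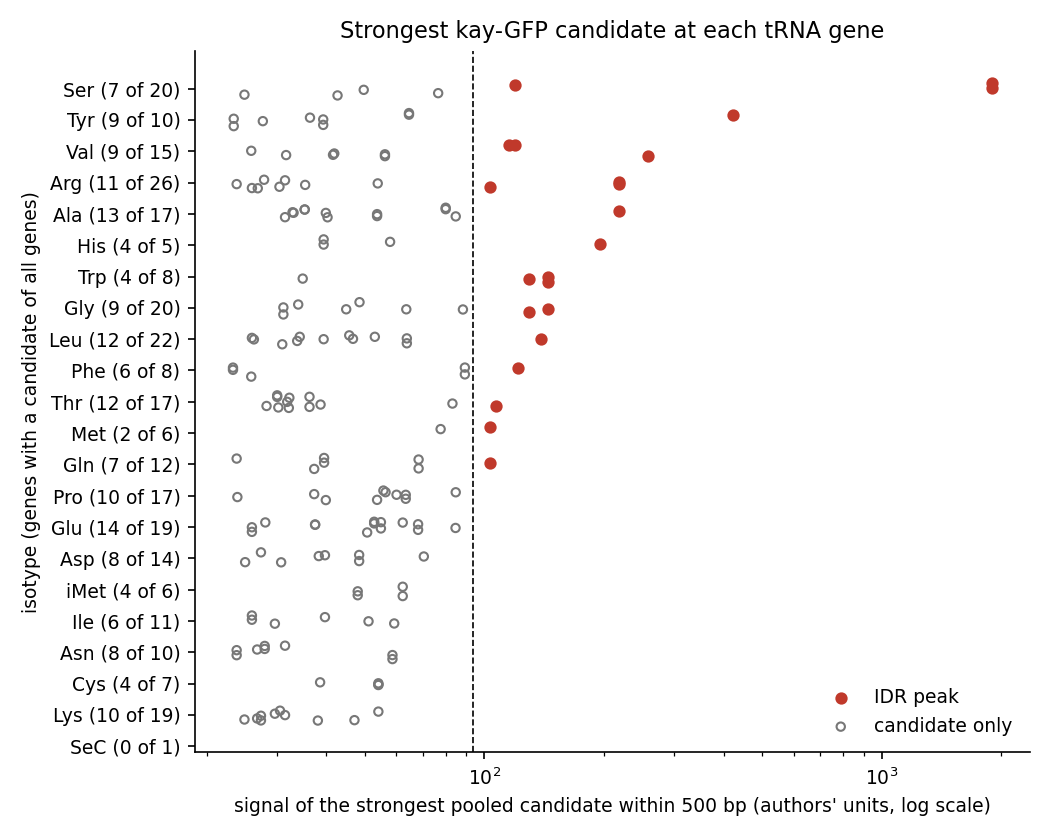
Signal of the strongest pooled candidate within 500 bp of each tRNA gene (points, logarithmic axis, authors' units), by isotype, with filled red points for IDR peaks and open points for candidates outside that list; the dashed line marks the lowest IDR signal, 93.6. The Ser-TGA pair at 1891.5 lies far to the right of the next point, Tyr-GTA-1-8 at 421.1.

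Genes with the same sequence differed in occupancy. All 11 identical sets with a bound gene also had an unbound one, and 32 of 43 sets held genes with and without a candidate. Of 6 identical genes, Val-CAC-2-5 was the only member with a pooled candidate, at 258.2. Of the 13 copies of Gly-GCC-1, 6 had a candidate and 2 were bound, each through a peak shared with a Trp-CCA-2 gene. The Trp-CCA-2 set had 3 bound genes of 6. In 7 sets every gene had a candidate, such as Pro-TGG-1 (37.3 to 84.7) and Cys-GCA-1 (38.6 to 54.1), and in 4 sets none had, among them Lys-TTT-2. Genes with no identical copy were bound in 7 of 52 cases (13.5%, 5.59 to 25.8%) and those with copies in 15 of 238 (6.3%, 3.57 to 10.2%). How reads matching several copies were placed is not given in the sources used here, and its part in these shares was not tested.

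The arms differed in the number of bound tRNA genes. On 2R, 15 of 98 genes were bound (15.3%, 8.83 to 24%), on 3R 5 of 79 (6.33%, 2.09 to 14.2%) and on X 2 of 24 (8.33%, 1.03 to 27%). None of 41 on 2L and none of 48 on 3L was bound, with upper bounds of 8.6% and 7.4%. Most bound genes on 2R shared their peak with a neighbour, whereas each of those on 3R and X had its own. The intervals treat genes as independent and are therefore too narrow where peaks are shared, and no arm was tested against another. Protein-coding genes were bound at like shares on these arms, with 18% on 2R, 21.3% on 3R, 15.1% on X, 18.6% on 2L and 19.9% on 3L. By position, 15 of 156 intergenic tRNA genes, 7 of 127 in introns and none of 7 overlapping an exon were bound. Of the 16 tRNA genes with an intron of their own (10 Tyr, 4 Leu and 2 Ile), only Tyr-GTA-1-8 was bound.

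An AP-1 site was uncommon both at these peaks and among all IDR peaks. It lay within 50 bp of 1 of 15 IDR summits near tRNA genes (6.67%, 0.169 to 31.9%), against 184 of all 3860 (4.77%, 4.12 to 5.49%). Among the other candidates near tRNA genes 2 of 140 had a site (1.43%, 0.173 to 5.07%), and among all 101-bp tiles of the arms 0.784%. With sites sought within 100 bp, 2 of 15 IDR summits near tRNA genes had one (13.3%, 1.66 to 40.5%), against 7.44% of all 3860. With 15 summits the intervals are wide and include the shares of all IDR peaks, and a difference was not tested. A match is a description of these letters and not evidence of binding.

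The strongest candidate with an AP-1 site near a tRNA gene below the IDR list belonged to Met-CAT-2-1 (FBgn0052273), an elongator methionine gene in an intron of promL on 3L. It had a signal of 77.6 and ranks of 5126 in replicate 2 and 7035 in replicate 4. Its site, chosen for display after the values were seen, had its centre 16 bp from the summit, and is shown within chr3L:3121777-3121813 (plus strand, site in capitals).
Met-CAT-2-1 candidate: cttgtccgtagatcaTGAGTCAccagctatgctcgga

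The calls of the 2 replicates at tRNA genes overlapped in part, for all candidates and for the strongest ones. The overlap was not counted for other genes, so it may not be particular to tRNA genes. A candidate lay within 500 bp of 160 tRNA genes in replicate 2 and of 178 in replicate 4, of which 124 were shared, 36 were in replicate 2 alone and 54 in replicate 4 alone, and 76 genes had none in either. With the 3860 strongest of each list, 22 and 20 genes were called. Of these, 17 were called in both, 5 in replicate 2 alone and 3 in replicate 4 alone. All 17 were also bound by the IDR list, which was itself made by comparing replicates. Glu-TTC-1-5 is an example of the rest, with ranks of 2514 in replicate 2 and 13616 in replicate 4, a pooled signal of 84.6 and no IDR peak. Over the 77 loci with a candidate in both replicates, ranks had a Spearman rho of 0.768, and over the 62 of them without an IDR peak 0.574. Leaving out the IDR loci removes top ranks that the replicates share, which narrows the range of ranks. Loci with a candidate in 1 replicate alone were not counted. The lower value is therefore only a partial measure of how weak candidates agree. These correlations are across loci of 2 libraries, which share the genome sequence and, per the labels, 1 line of flies.

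**Figure D5:**
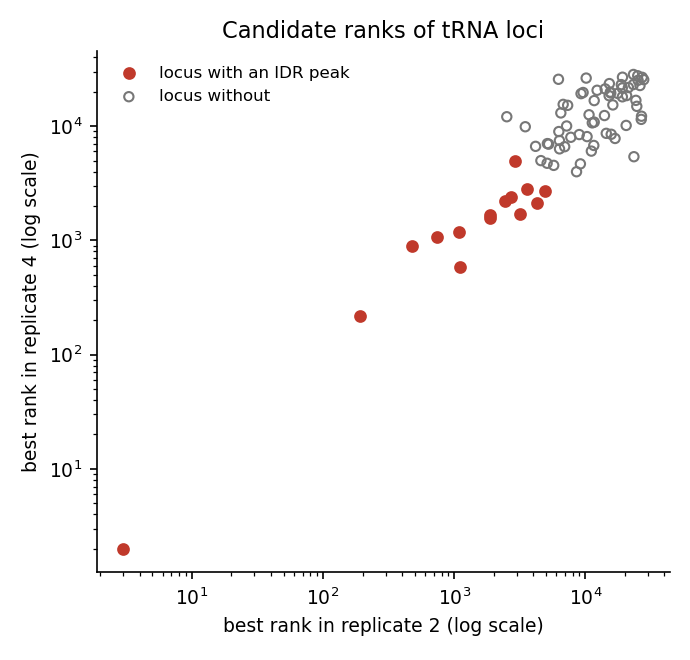
Best candidate rank of each tRNA locus in replicate 4 against replicate 2 (both axes logarithmic), for the 77 loci with a candidate in both, red where the locus has an IDR peak and open where it has none. The Ser-TGA locus, at ranks 3 and 2, lies apart at the lower left.

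Genes that make or serve tRNAs were also examined, as lists of protein-coding genes with an IDR summit within 500 bp of a TSS, beside the 18.8% of all protein-coding genes. By the same rule, 53% of all protein-coding genes had a candidate. Of 21 matched genes of RNA polymerase III and its factors, 13 had a candidate and 5 were bound (23.8%). They were Brf, a subunit of TFIIIB, at 646.7 (rank 74); Bdp1, another TFIIIB subunit, at 434.1; Polr1D, a subunit that polymerases I and III share, at 256.7; and Polr3E, a polymerase III subunit, at 216.2. La, which binds the 3′ ends of new polymerase III transcripts, was the fifth, at 166.2, and was named after its value was seen. The summit at Bdp1 was nearer to a TSS of CG6565. Polr3A and Polr3B, which encode the largest subunits and were also named afterwards, had no candidate.

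Among 20 aminoacyl-tRNA synthetases, the enzymes that load tRNAs with amino acids, 19 had a candidate and 9 were bound (45%). The strongest were SerRS at 413.9, IleRS at 300.0, GluProRS at 299.1 and ArgRS at 226.9. The summits at GluProRS and ArgRS were nearer to TSSs of AP-1sigma, a clathrin adaptor subunit gene, and CG8578. Of 19 matched tRNA processing genes, 15 had a candidate and 8 were bound (42.1%), among them Pop1, of RNase P, at 146.9, Archease, a partner of the tRNA ligase, at 125.2, and Trm1, a tRNA methyltransferase, at 124.4. The summits at Pop1 and Trm1 were nearer to TSSs of Mlc-c and CG5446. No test was run on these lists, which hold few genes. Of 10 other genes of RNA polymerase III, 6 had a candidate and 2 were bound, the U6 genes snRNA:U6:96Ab and snRNA:U6:96Ac, which share a peak of 106.2, beside the 5.65% of all snoRNA and snRNA genes.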

How the data were processed

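Regions were deposited by the authors as lists of 10 columns without a header, for 2 replicates, both pooled, and the IDR list, in dm6. Per the labels and the deposited descriptions, candidates were made from alignments of 1 replicate or both pooled and a control. For the aligner, the peak caller and their versions, nothing is stated by the labels or the lists. The signal per region is the deposited value of the authors' peak caller, whose scale between lists is not stated, so only ranks are set between lists. The deposited −log10 q value is the same in all 3860 IDR peaks and was not used. The dm3 lists were not used. Ends of all candidates lay within the Release 6 arms.

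Summits (1-based) were assigned with Python 3.11.15, numpy 2.4.6 and pandas 2.3.3, intervals with scipy 1.17.1, and figures drawn with matplotlib 3.10.9. The code was tested on simulated summits and motifs. AP-1 sites (both strands) were sought up to 50 bp from summits. No test was run, since there is 1 group, and depth is unknown. The members and lists were chosen with earlier results of these data known. The B box core was widened from a stricter form after its share was seen. Named genes were those nearest to each of up to 20 strongest IDR peaks (15 exist), each isotype's strongest, the 5 largest clusters, 3 bound genes of lowest and 3 unbound of highest signal, and up to 4 per list. Pro-TGG-1, Cys-GCA-1, Lys-TTT-2, the neighbours of Tyr-GTA-1-8, Glu-TTC-1-5, Met-CAT-2-1 and the examples of identical sets were named after their values were seen. The small RNA background holds snoRNA and snRNA genes, because the annotation has no separate class of miRNA precursors. List members TfIIIA, TfIIIC220, TfIIIC110, CCA and Xpot were not matched. Sequence was read from the RefSeq Release 6 genome, and a few sequences and 1 listed gene are not reported here. Alternatives covered windows of 250 and 1000 bp, overlap of peak and gene, the strongest 50% of IDR peaks, each replicate alone, counting per locus, cluster gaps, TSS distances, motif windows and 1 peak per overlapping cluster.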

Additional observations from a re-analysis of the deposited data

How the results depend on the processing

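No paired analysis was possible because the only group has no counterpart. Of 66 alternative values, 53 stayed within the interval of the reported value (or within 1.5 times a count) and 13 did not. With summits within 250 bp, 4.48% of tRNA genes and 5.41% of clustered genes were bound, and 40% had a candidate, against 72.4% within 1000 bp. Requiring the IDR peak to overlap the gene gave 3.79% of all tRNA genes, 4.32% of clustered genes and 8.75% of those with a TSS within 1 kb. With the strongest 50% of IDR peaks the shares were 3.79% of all, 5.41% of clustered, 0.952% of single genes and 7.5% of those with a TSS within 1 kb, 8 isotypes had a bound gene, and 23.3% of the 60 listed protein-coding genes were bound. Each of these settings, except the wider window, admits fewer summits by its construction. Each replicate alone gave 6.9 to 7.59% bound and 55.2 to 61.4% with a candidate. The clustered share stayed above the single share, and the share near a TSS above that without one, in each alternative run for them. The isotype and list counts under other settings were chosen after seeing the data. The median signal was not recomputed in the replicates' lists, since their signal scales cannot be set side by side. Unknown depth and 15 peaks limit the precision.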

Other observations

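The 5S rRNA genes, also transcribed by RNA polymerase III and present as 96 annotated copies on the arms, had no candidate within 500 bp and no IDR peak. They were counted by gene and not by locus, and neighbouring copies are not independent of each other. Of 5 annotated tRNA pseudogenes, 2 had a candidate and none was bound. Among tRNA genes, 58.3% had a candidate. Placement of reads in repeated copies was not tested.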
